A study of Mus musculus with 4 samples.

Results

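Circular RNAs (circRNAs) arise when the spliceosome joins a donor site, the end of an exon, back to an acceptor site further upstream, the start of the same or an earlier exon. The read that crosses this back-splice gives a start and an end on the genome, and both usually lie on exon boundaries of 1 gene. The junctions described here do not meet that pattern. The 517 of them, out of 23980 circRNAs in the table (2.16%), were chosen by position alone against the GENCODE M21 annotation of the mouse genome GRCm38. In 92, the 2 ends lay on exon boundaries of different genes that share no gene, and these are called joining junctions. In the other 425, neither end lay on an exon boundary and no single gene held the whole interval, and these are called between-gene junctions.

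The study measured circRNAs in mouse brain by sequencing RNA freed of ribosomal RNA. Of the 4 libraries, 3 came from mice 3 h after permanent occlusion of the middle cerebral artery with a filament (MCAO, a model of ischemic stroke). One holds infarct core on the frontal side (core frontal), another infarct core on the occipital side (core occipital), and the third the penumbra, the underperfused rim of the infarct that can still be saved. RNA of 6 mice was pooled for each of these. The fourth library came from sham mice, whose cortex corresponding to core and penumbra was taken. How many sham mice there were, and when they were sampled, is not stated in the sources used here. All brains were removed after cardiac perfusion with ice-cold PBS. Each group is represented by 1 library: replicate error cannot be given, intervals cover counting error only, and tests compare libraries, not conditions. Reads carry no molecular identifiers and are not independent molecules. Pooling hides the spread between mice, and in bulk tissue fewer cells of a type and less RNA per cell cannot be told apart.

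The libraries held between 83090 and 121393 circRNA counts. Levels are given as CPM, counts scaled to the same circRNA total in every library. The labelled brain tissue was checked on hosts of same-gene circles: all 8 neuron markers had counts, summing to between 18601 and 20737 CPM per library. Of 4 astrocyte markers only Slc1a2 had counts (5 to 12 per library), while Gfap, Aqp4 and Slc1a3 were at 0. Oligodendrocyte and microglia markers were all at 0, and of the 4 endothelial markers only Pecam1 had counts, 0 or 1 per library. The table lists circRNAs only, so a host at 0 says nothing of the linear messenger RNA.

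As background, a junction between neighbouring genes can be read from a transcript that runs through both, and a junction between gene copies can also be read where reads of 1 copy match the other. A junction outside annotated exons can lie in a transcript that the annotation lacks or ends early. Large stretches of such RNA are known from imprinted domains, regions where only the copy from 1 parent is transcribed. The Prader-Willi and Angelman region between Ube3a, a ubiquitin ligase gene, and Mkrn3 is expressed from the paternal chromosome in neurons as a very long noncoding RNA that runs from Snrpn through snoRNA genes and over Ube3a. The Dlk1 to Dio3 domain holds maternally expressed noncoding RNAs and a large microRNA cluster.

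The sequences across the back-splice of joining junctions are shown because they are what a read of each junction must match. Each was built from GENCODE M21 transcripts as the last 15 bases of the donor exon, in lower case, followed by the first 15 bases of the acceptor exon, in capitals. Shown are the most counted junction, the leading junctions with a zinc finger gene on at least 1 side, the Ntng2 junction, the pair of RNA-binding protein genes, and both junctions of the helicase genes, which end in 1 shared acceptor. No genome sequence was used here, so no sequence is given for between-gene junctions.
Gm43597 to N4bp2l2, chr5:150604177-150608440, minus strand: aagatgtcaacaaagAGGAAGAGTTTTGAA
Zfp748 to Zfp729a, chr13:67546625-67623563, minus strand: accttgtgttcctggGTCTTGCTTCGTGTA
Zfp984 to Zfp933, chr4:147807090-147828796, minus strand: tcacaaaggatccagGATGCAGTGAGCTAT
Zfp738 to Zfp65, chr13:67683403-67711007, minus strand: agcgccatctttcagGAAATGCTGTCATTC
Zfp947 to CT030661.1, chr17:22163187-22309597, minus strand: tagcaaaggatccagGTCTCTAACTGCTCA
Ntng2 to 6530402F18Rik, chr2:29227578-29248878, minus strand: cgaagtcattggcagGTGCTGCTGCTAATG
Rbm4 to Rbm14, chr19:4792398-4804015, minus strand: acacagagtttcaagACTACGCGTTTGTTC
Ddx19a to Ddx19b, chr8:110980553-111011462, minus strand: ttcgaggcaataaatTGGAGAGGGGTCAGA
Ddx19a to Ddx19b, chr8:110978468-111011462, minus strand: atgatcttctgccatTGGAGAGGGGTCAGA

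MicroRNAs that lie inside or next to some between-gene junctions are shown next, from RefSeq on GRCm38.p6, with the seed (bases 2 to 8) in capitals. The first 3 lie inside junctions of the Ube3a to Mkrn3 region and the last 2 stand on either side of a short junction of the Dlk1 to Dio3 domain.
mmu-miR-344f-3p, chr7:62046183-62046203, minus strand: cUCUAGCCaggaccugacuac
mmu-miR-344f-5p, chr7:62046225-62046246, minus strand: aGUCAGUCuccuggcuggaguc
mmu-miR-344i, chr7:62085281-62085300, minus strand: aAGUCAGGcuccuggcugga
mmu-miR-543-3p, chr12:109717304-109717325, plus strand: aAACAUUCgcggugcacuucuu
mmu-miR-495-3p, chr12:109718795-109718816, plus strand: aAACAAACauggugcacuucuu
Their seeds all differ from each other.

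Together the 517 junctions took 4316 counts, 1.06% of all. The share was 1.06% of counts in the core frontal library (95% Wilson interval 1.01 to 1.12), 1.06% in the core occipital (0.991 to 1.13), 1.05% in the penumbra (0.988 to 1.12) and 1.06% in the sham (1.00 to 1.13). All 4 shares lay within each other's intervals. Joining junctions took 0.240% (0.214 to 0.269), 0.297% (0.262 to 0.337), 0.261% (0.230 to 0.295) and 0.224% (0.198 to 0.255) of counts in the core frontal, core occipital, penumbra and sham libraries. The core occipital share was the highest and its interval did not overlap that of the sham library. Between-gene junctions took 0.824% (0.774 to 0.876), 0.761% (0.704 to 0.822), 0.790% (0.736 to 0.848) and 0.840% (0.787 to 0.897) in the same order, with overlapping intervals.

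**Figure D1:**
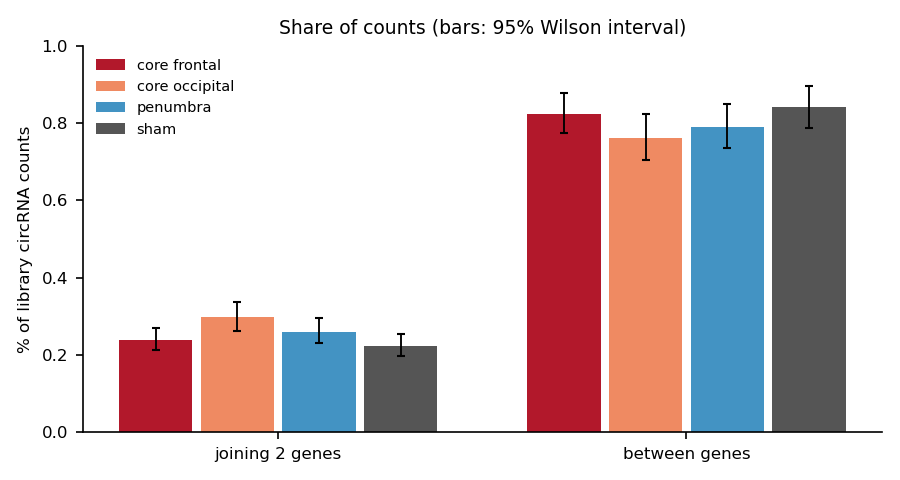
Share of each library's circRNA counts (y axis, %) on joining and between-gene junctions, with 95% Wilson intervals. Joining junctions took between 0.224% (sham) and 0.297% (core occipital) of counts, and between-gene junctions between 0.761% and 0.840%.

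Most of these junctions were counted a few times. The median sum over the 4 libraries was 4 counts for joining and 4 for between-gene junctions, against 5 for circles of 1 gene, meaning circRNAs whose start and end both match exons of 1 gene. Of the joining junctions, 18 of 92 (19.6%) reached 10 counts and 24 (26.1%) were seen in all 4 libraries. The same held for 69 of 425 between-gene junctions (16.2%) and 78 (18.4%). Among the 19904 circles of 1 gene the shares were 30.3% and 32.5%. A sum of only 2 counts, the smallest in the table, was found for 26 joining (28.3%) and 115 between-gene junctions (27.1%), against 19.0% of circles of 1 gene. In the core frontal, core occipital, penumbra and sham libraries 327, 318, 313 and 298 of the 517 had counts. After all libraries were thinned to the smallest total, these numbers were 281, 318, 292 and 269. Over all circRNAs of the table the thinned numbers were 14717, 15921, 15649 and 14864. There too core occipital was highest and the penumbra next, so this order is not particular to these junctions.

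Joining junctions spanned further than circles of 1 gene, with a median of 55228.5 bases against 12232.5. Where the joined genes do not overlap, the interval must also cover the space between them. The longer span therefore follows in part from the rule. In 91 of the 92 both genes lay on 1 strand and both ends were annotated splice sites in the order a back-splice needs, 98.9% against 99.7% for circles of 1 gene. The rule asks for an exon start at the start and an exon end at the end. For genes on 1 strand the order therefore follows from the rule and is not a separate result. The rule does not ask for 1 strand, or for splice sites rather than the outer ends of transcripts. The exception joined Gm26835 and Hivep2, which lie on opposite strands. The genes were mostly neighbours: 20 pairs of ends lay in overlapping genes, no other protein-coding gene lay between the joined genes in 69 (75.0%), and the most between them was 7. For genes that did not overlap, the median gap was 22310.5 bases and the largest was 351492. No circRNA in the table spanned more than 496045 bases, so joined genes further apart than that could not be seen. That the genes lie near each other is therefore partly set by the table.

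The joined genes fell into a few kinds. Both were protein coding in 53 junctions (419 of 1028 joining counts). A predicted or clone-named gene (symbols Gm or ending in Rik) was on at least 1 side in 39, with 615 counts (59.8%). In 29 both symbols began with the same letters, as in gene families, with 287 counts (27.9%). RefSeq places 23 of the 92 inside 1 gene, with 476 counts (46.3%). Of these, 7 with 340 counts lie inside no GENCODE gene: the 4 that join Gm43597 and N4bp2l2, and those of Efcab5 and Alms1.

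Sequence shared between genes was more frequent at these ends than at ends of circles of 1 gene. The 20 exonic bases at 1 of the ends were also found in the transcripts of a gene located elsewhere for 38 of 92 joining junctions (41.3%), against 663 of 19872 circles of 1 gene (3.34%). The bases of 1 end were found in the joined partner itself for 38 (41.3%), of which 30 had genes lying apart. These 38 held 196 counts, 19.1% of joining counts. Where the shared bases lie in separate copies, the reads of such a junction could come from either copy, and their counts are uncertain. Where the genes overlap, the shared bases can instead be the same stretch of genome, annotated in both. An end was shared with another circle of 1 gene less often: 27 of 92 (29.3%) shared at least 1 end with one, against 74.6% of circles of 1 gene, and 3 (3.26%) shared both, against 30.1%. These shares are descriptions over junctions, without a test.

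**Figure D2:**
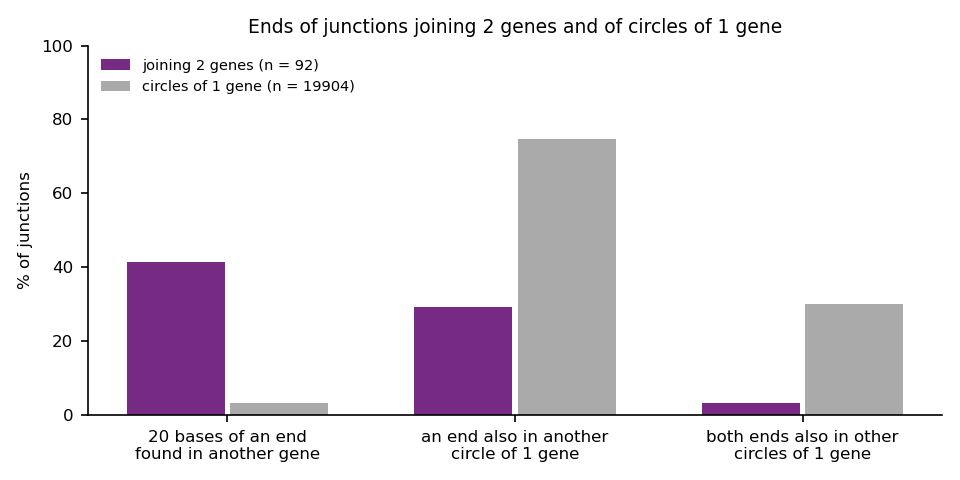
Percent of junctions (y axis) with each property of their ends, for the 92 joining junctions and the 19904 circles of 1 gene (19872 with bases at both ends). Shared bases were found for 41.3% against 3.34%, and a shared end for 29.3% against 74.6%.

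A single junction held 29.8% of all joining counts, and the 15 most counted held 70.1%. The most counted one linked exon 2 of the 3-exon noncoding gene Gm43597, as donor, to the untranslated exon 4 of N4bp2l2, as acceptor (chr5:150604177-150608440). N4bp2l2 encodes a protein related to a binding partner of the ubiquitin ligase NEDD4. It had 84 counts in the core frontal, 63 in the core occipital, 83 in the penumbra and 76 in the sham library, or 692 CPM (95% Poisson interval 552 to 857), 758 (583 to 970), 861 (686 to 1068) and 713 (562 to 893). The 4 intervals overlap, and the CPM ratio of penumbra to sham was 1.21 (0.874 to 1.67). GENCODE leaves a gap of 1003 bases between the genes (Gm43597 at 150599932 to 150607003, N4bp2l2 at 150608007 to 150666183 of chromosome 5, both on the minus strand), whereas RefSeq draws 1 N4bp2l2 gene from 150599931 to 150665748. No circle of 1 gene used either end. The same pair of genes was the only one of 76 pairs joined by 3 or more junctions: its 4 junctions summed to 87, 73, 89 and 78 counts in the same library order. Of the other pairs, 62 were joined by a single junction.

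Zinc finger genes, which encode DNA-binding proteins and lie in tandem clusters of similar copies, were on both sides of 7 junctions with 163 counts (15.9% of joining counts). Zfp748 and Zfp729a, with 58932 bases and 1 coding gene between them, were linked from the coding exon 2 of Zfp748 to the coding exon 3 of Zfp729a. This junction had 25, 23, 9 and 15 counts in the core frontal, core occipital, penumbra and sham libraries, or 206, 277, 93.4 and 141 CPM. Penumbra had the lowest level and core occipital the highest. Zfp984 and Zfp933 were linked by 23, 10, 10 and 10 counts. For both of these, bases of 1 end also occur in a gene elsewhere, though not in the partner. Zfp738 and Zfp65 had 5, 9, 9 and 6 counts, and the zinc finger gene Zfp947 and the clone-named coding gene CT030661.1, which is not counted among the 7, had 5, 9, 7 and 6. In these last ones the bases of an end occur in the joined partner as well.

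Most other leading junctions linked a coding gene to a predicted or clone-named gene within or beside it. Ntng2, which encodes the synaptic adhesion protein netrin-G2, was linked from its coding exon 2 to exon 2 of 6530402F18Rik, a noncoding gene that overlaps it, with 20, 12, 19 and 17 counts in the core frontal, core occipital, penumbra and sham libraries. Levels were 165, 144, 197 and 160 CPM, with overlapping intervals. Hivep2, a zinc finger transcription factor gene, shared its junction with Gm26835 at 14, 9, 7 and 12 counts. This interval lies wholly inside Hivep2. Because the genes lie on opposite strands, both its ends are annotated donor sites, not a donor and an acceptor. The Hivep2 end also served 1 same-gene circle with 215 counts. Gm49709 and Hunk, a kinase gene, had 2, 5, 7 and 6 counts, and Gm14018 and Wdr76 had 3, 2, 3 and 3, with bases of an end found in the partner. Pcdh15, a protocadherin gene, and Gm15397 had 0, 7, 6 and 2. The upper 95% Poisson limit for the 0 in the core frontal library is 30.4 CPM. Soga3 and Gm49353, which overlap, had 2, 6, 2 and 3 counts, with bases of an end found in the partner. The noncoding genes E230016M11Rik and A430010J10Rik had 4, 5, 4 and 4.

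Among pairs of related coding genes, Rbm4 and Rbm14 encode RNA-binding proteins. Their junction lies inside Gm21992, a gene model that spans the pair, and had 8, 4, 2 and 9 counts. Its start, a donor site, also served 1 same-gene circle with 879 counts. The 20 bases at that start also occur in a gene elsewhere, though not in the partner. Ddx19a and Ddx19b, DEAD-box RNA helicases of messenger RNA export, were linked by 2 junctions with the acceptor of exon 8 of Ddx19b. One used the donor of exon 7 of Ddx19a, with 6, 5, 1 and 1 counts, and the other that of exon 9, with 4, 1, 6 and 1. At such counts no order of libraries can be read. The 20 bases at the exon 9 donor also occur in the joined partner, Ddx19b, while those at the exon 7 donor do not.

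Between-gene junctions had a median span of 11106 bases, with 25 under 500 bases and 39 over 100000. Of the 425, 279 (65.6%, 2304 of 3288 counts) overlapped no GENCODE gene at all. RefSeq, which holds other gene models, places 126 (29.6%, 1473 counts) inside 1 gene. For 197 (46.4%, 1186 counts) neither annotation gave a gene: they overlapped none in GENCODE and lay inside none in RefSeq. An end was shared with another circRNA of the table for 226 (53.2%), against 76.0% of circles of 1 gene and 40.4% of junctions inside a gene but off its exon boundaries. Shared ends tied 208 of the junctions into 61 connected sets, and 217 stood alone. One junction lay on the mitochondrial genome (9 counts), 6 on an unplaced scaffold and 0 on chromosome Y.

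Many of them came from 1 imprinted region. Chromosome 7 held 97 of the 425 (22.8%), against 4.88% of circles of 1 gene. The region from Ube3a to Mkrn3 (chr7:59228750-62420139), chosen after these values were seen, held 68 of them (16.0%) with 775 counts, 23.6% of all between-gene counts. The region held 0.146% of circles of 1 gene, 2.67% of circRNAs with 1 end on an exon boundary and 15.4% of junctions inside a gene off exon boundaries. All but 1 of the 68 shared an end with another circRNA. RefSeq puts 26 of the 68 inside a gene. Its Snhg14, the noncoding transcript that carries the snoRNA genes, runs from 59272737 to 60450177, where GENCODE ends it at 59975759. Likewise RefSeq starts A230006K03Rik at 61010265 where GENCODE starts it at 61127996. A snoRNA gene lay inside 1 of the 68 and a microRNA gene inside 11.

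The 68 junctions summed to 227, 140, 178 and 230 counts in the core frontal, core occipital, penumbra and sham libraries. Their summed levels were 1870 CPM (95% Poisson interval 1635 to 2130), 1685 (1417 to 1988), 1847 (1586 to 2140) and 2158 (1888 to 2456). Sham was highest and core occipital lowest, with overlapping intervals. The largest connected set (chr7:60193417-60856304) held 27 junctions with 618, 638, 758 and 798 CPM in the same order. It begins upstream of the GENCODE start of Snrpn, the gene of an RNA-splicing protein. The next (chr7:60902612-61151349) held 14 junctions with 64, 18, 38 and 51 counts, or 527, 217, 394 and 479 CPM. It begins before the RefSeq start of A230006K03Rik (61010265) and runs into that gene. Core occipital was lowest in this set, and core frontal highest. The set at chr7:62019949-62100436 held 13 junctions with 478, 566, 394 and 638 CPM, and the set at chr7:59198005-59342488, over Ube3a, held 8 with 17, 18, 20 and 19 counts. This last set begins before the start of the region and does not lie wholly inside it.

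**Figure D3:**
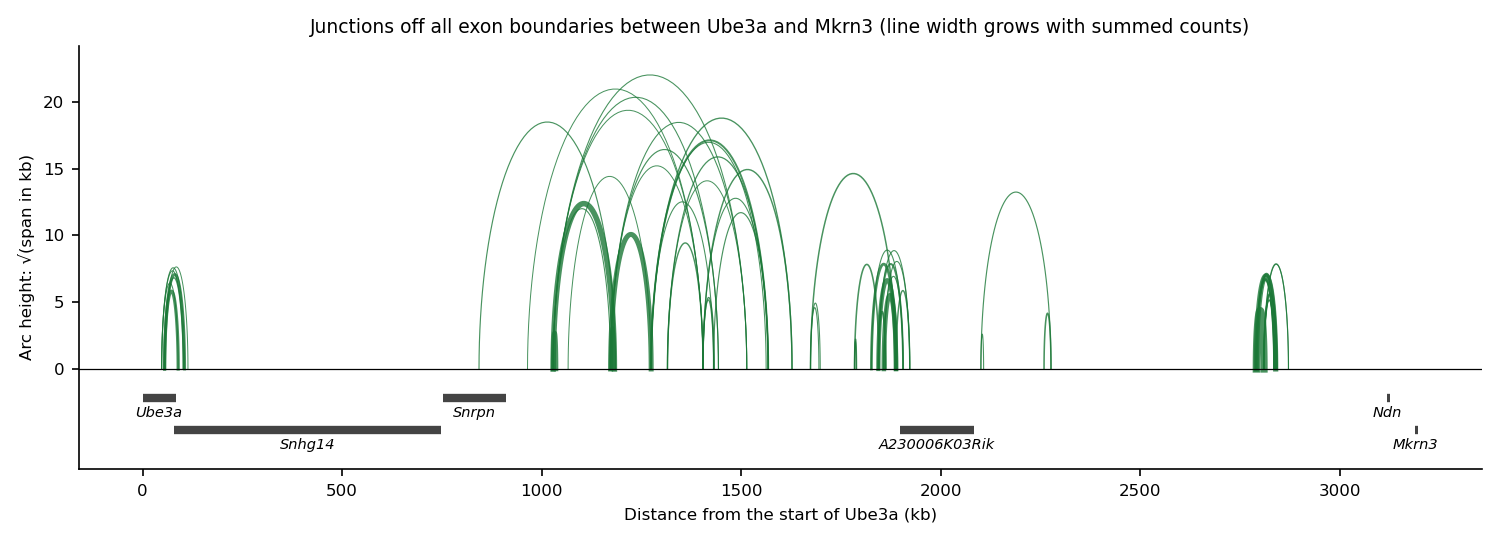
The 68 between-gene junctions from Ube3a to Mkrn3. The x axis is the distance from the start of Ube3a in kb, each arc links the ends of 1 junction, its height is the square root of the span in kb and its width grows with the summed counts, and bars are GENCODE genes. Arcs fall in a few sets, the largest of 27 junctions, most of them outside the bars.

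The microRNA Mir344f lay inside 11 junctions with 122 counts, all in the set at chr7:62019949-62100436, and Mir344i inside 2 with 6 counts. Of 13 RefSeq hairpins in the region, the others lay inside none. Several leading junctions of this set start at 1 base, 62019949. One ending at 62039082 had 24, 12, 14 and 28 counts in the core frontal, core occipital, penumbra and sham libraries and ends before Mir344f. The one ending at 62068450, which contains it, had 12, 15, 12 and 13. In the Dlk1 to Dio3 domain, with 58 RefSeq hairpins, 8 junctions summed to 47, 18, 26 and 34 counts. Most of these came from a junction of 386 bases at chr12:109718114-109718499, which starts 781 bases beyond Mir543 and ends 255 bases before Mir495. It had 35, 17, 23 and 22 counts, or 288, 205, 239 and 206 CPM, with overlapping intervals.

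Outside these domains the leading junctions were short. The most counted between-gene junction (chr4:23771757-23772887, 1131 bases) overlapped no GENCODE gene and lay in the RefSeq noncoding gene Gm31145. The nearest coding genes are Pou3f2, a neuronal transcription factor gene 1283391 bases away, and Mms22l, 723564 bases away. It had 97 counts in the core frontal, 36 in the core occipital, 35 in the penumbra and 62 in the sham library, or 799 CPM (648 to 975), 433 (303 to 600), 363 (253 to 505) and 582 (446 to 746). Core frontal was highest, and its interval overlapped only that of the sham library. The next (chr9:63093427-63093625, 199 bases) lay in the RefSeq gene Gm35658, between Pias1 and Skor1, 44545 bases from Skor1. It had 17, 17, 39 and 32 counts, or 140 CPM (81.6 to 224), 205 (119 to 328), 405 (288 to 553) and 300 (205 to 424). Here penumbra was highest and core frontal lowest, and those 2 intervals do not overlap.

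Further leading junctions had fewer counts and wider intervals. At chr4:142410457-142411344, in the RefSeq gene Gm42339 between Kazn and Prdm2, there were 23, 9, 18 and 17 counts. At chr15:5322244-5323612, in Gm41257 between Ptger4 and Dab2, there were 21, 10, 13 and 19. A junction of 353 bases, 30607 bases before Ube3a (chr7:59197791-59198143), had 9, 12, 13 and 18. Within the RefSeq reach of Snhg14 and Snrpn, chr7:60257685-60411166 had 17, 7, 11 and 21, and chr7:60401677-60503313, which runs past it, had 11, 7, 18 and 14. The 4 Poisson intervals of each of these 5 junctions overlap. Elsewhere on chromosome 7, outside the Ube3a to Mkrn3 region, a set of 7 junctions in the RefSeq noncoding gene Gm32786 (chr7:142113804-142137757) summed to 27, 11, 16 and 13 counts.

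**Figure D4:**
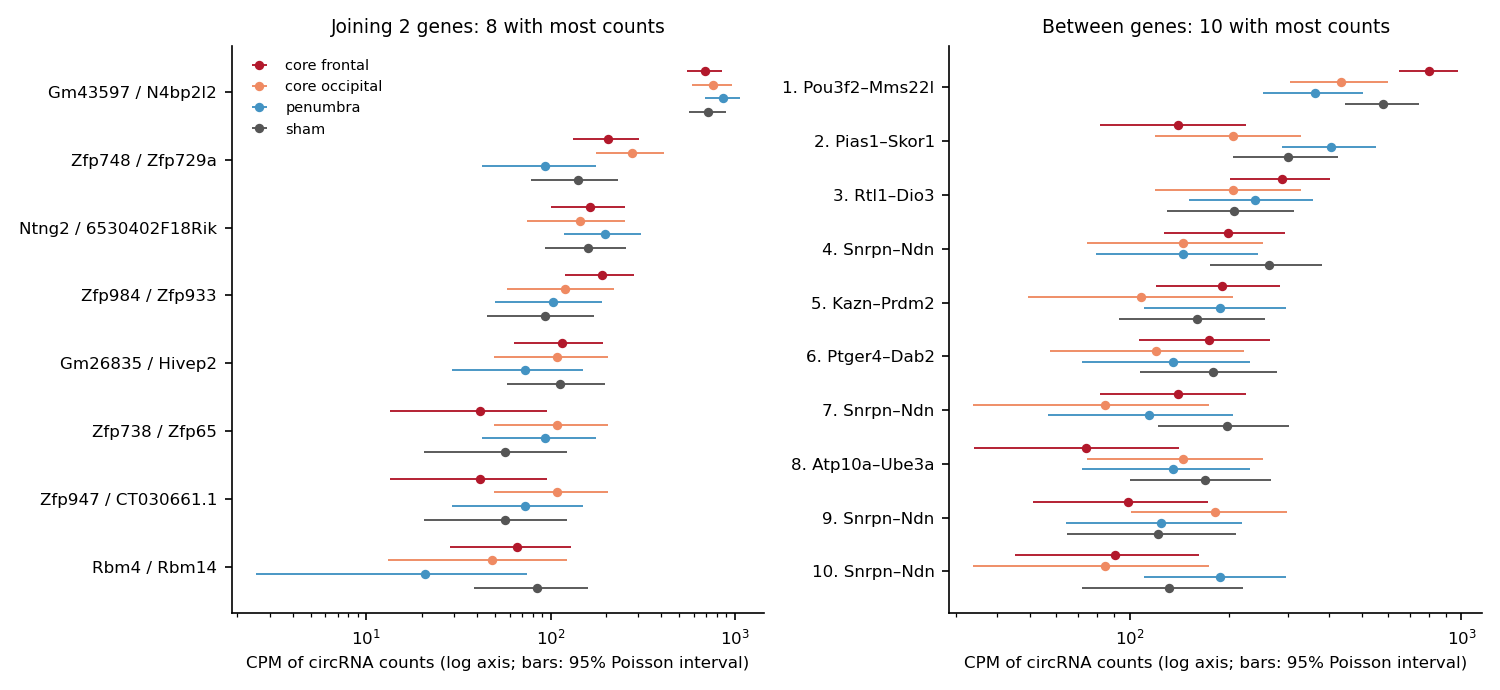
CPM (x axis, log scale) in each library with 95% Poisson intervals for the 8 joining junctions (left) and the 10 between-gene junctions (right) with most counts, the latter named by their flanking coding genes. Intervals overlap across libraries for Gm43597 / N4bp2l2, while the junction between Pou3f2 and Mms22l runs from 363 CPM in the penumbra to 799 in the core frontal library.

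Each pair of libraries was compared with Fisher's exact test on every circRNA with at least 10 counts over the pair, adjusted by Benjamini and Hochberg over all of them. The call required a ratio of at least 2 in either direction together with an adjusted p below 0.05. The comparisons share libraries and are not independent. Only 65 of the 517 junctions (12 joining and 53 between-gene) had enough counts in any pair, 28 in all 6 pairs, and 452 were never tested.

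Penumbra and core frontal were the pair in which any of them was called: 2 of 44 tested, against 0.934% of all circRNAs tested, with 1 in each direction, against 0.53% of all called higher and 0.404% called lower. The chr4 junction in Gm31145 was lower in the penumbra, with a CPM ratio to core frontal of 0.455 (95% interval 0.300 to 0.675, adjusted p = 0.0142, Fisher's exact test). The chr9 junction in Gm35658 was higher, with a ratio of 2.89 (1.60 to 5.45, adjusted p = 0.0321, Fisher's exact test). With an exact test in edgeR that assumes a coefficient of variation of 0.2, in place of a spread between animals that these libraries cannot show, neither was called (adjusted p = 0.705 and 0.640). Both also differed before adjustment in other pairs. The chr4 junction had a ratio of penumbra to sham of 0.624 (0.400 to 0.960, adjusted p = 0.360 by Fisher's exact test) and of core frontal to core occipital of 1.84 (1.25 to 2.78, adjusted p = 0.0943). The chr9 junction had a core frontal to sham ratio of 0.466 (0.243 to 0.865, adjusted p = 0.163) and a penumbra to core occipital ratio of 1.98 (1.09 to 3.73, adjusted p = 0.566).

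In the other 5 pairs Fisher's exact test called 0 of these junctions, and edgeR's exact test called 0 in any pair. Over all circRNAs tested, edgeR's exact test called 1 of 3962 (0.025%) in penumbra against core frontal and 0 in each other pair. The share of all circRNAs at an unadjusted p under 0.05 by edgeR's test is not given here. For penumbra against sham Fisher's test called 0 of 47, against 0.0538% of all tested. At an unadjusted p under 0.05 there were 2 by Fisher's test (against 11.3% of all tested) and 1 by edgeR's. Core frontal against sham gave 0 of 47 against 0.747%, with 9 unadjusted by Fisher's test (against 14.2% of all) and 6 by edgeR's. Core occipital against sham gave 0 of 40 against 0.467%, with 2 (against 12.6%) and 1. Penumbra against core occipital gave 0 of 37 against 0.0606%, with 2 (against 7.03%) and 1, and core frontal against core occipital 0 of 42 against 0.344%, with 3 (against 11.8%) and 2. In penumbra against core frontal 5 of 44 had an unadjusted p under 0.05 by Fisher's test (against 12.8%) and 2 by edgeR's.

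Ratios of at least 2 were also counted without a test, beside the same share over all circRNAs tested. Penumbra against sham had 8 of 47 (17.0%) past 2-fold against 23.8% of all tested, 2 higher (11.1% of all) and 6 lower (12.7% of all). Core frontal against sham had 15 of 47 (31.9%) against 26.5%, 7 higher (15.1% of all) and 8 lower (11.4% of all). Core occipital against sham had 11 of 40 (27.5%) against 24.4%, 2 higher (11.3% of all) and 9 lower (13.1% of all). The median log2 ratio of the junctions tested was -0.12, -0.04 and -0.33 in these 3 comparisons, beside 0.01, 0.03 and -0.06 for all circRNAs tested. Between the MCAO libraries the counts were 14 of 44 (31.8% against 24.4%) for penumbra against core frontal, 9 of 37 (24.3% against 20.4%) for penumbra against core occipital and 11 of 42 (26.2% against 25.6%) for core frontal against core occipital.

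**Figure D5:**
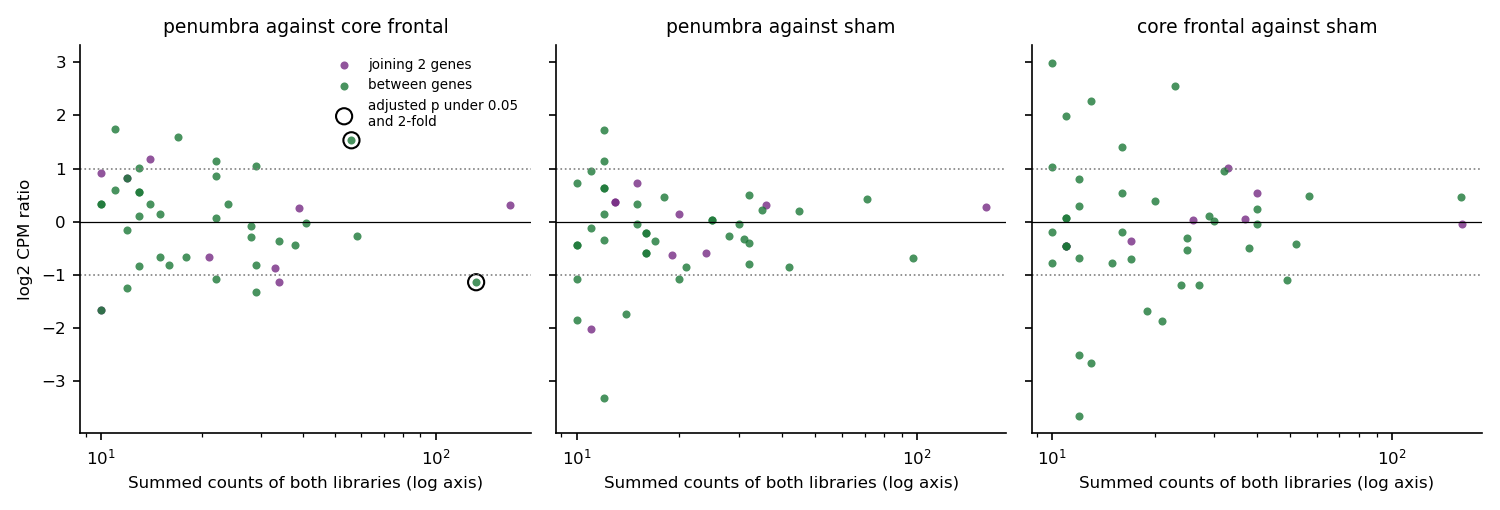
log2 CPM ratio (y axis) against the summed counts of both libraries (x axis, log scale) for each tested junction in 3 of the 6 comparisons; dotted lines mark 2-fold. Ratios spread widely at low counts, and the 2 ringed junctions of penumbra against core frontal are the only called ones.

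The other junctions with a ratio of at least 2 and an unadjusted p under 0.05 did not pass the adjustment. Counts are given for the core frontal, core occipital, penumbra and sham libraries in that order. The junction at chr1:47231193-47288017, between Slc39a10 and Tmeff2, had 20, 7, 9 and 3 counts and a core frontal to sham ratio of 5.85 (1.74 to 30.8, adjusted p = 0.0676, Fisher's exact test).

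Other between-gene junctions were higher in sham than in core frontal. At chrX:105175990-105176257, in the RefSeq gene Gm33605, there were 5, 8, 12 and 16 counts and the ratio of core frontal to sham was 0.274 (adjusted p = 0.154 by Fisher's exact test). In the RefSeq reach of Rbm15, an RNA-binding protein gene, chr3:107317150-107319215 had 2, 3, 6 and 10 counts and a ratio of 0.176 (adjusted p = 0.208). Within the imprinted region, chr7:60401677-60411166 had 5, 6, 7 and 14 counts and a ratio of 0.313 (adjusted p = 0.243). There too, chr7:62019949-62070616, which contains Mir344f, had 2, 3, 3 and 11 and a ratio of 0.160 (adjusted p = 0.162).

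In the opposite direction, chrX:82835695-82841135, in the RefSeq reach of Dmd, the dystrophin gene, had 11, 1, 5 and 2 counts and a core frontal to sham ratio of 4.83 (adjusted p = 0.258 by Fisher's exact test). In the A230006K03Rik set, chr7:61072717-61116959 had 22, 2, 7 and 10 counts and a ratio of core frontal to core occipital of 7.53 (1.85 to 66.1, adjusted p = 0.0715). Among joining junctions, Zfp748 to Zfp729a had a ratio of penumbra to core occipital of 0.337 (0.137 to 0.757, adjusted p = 0.456) and of penumbra to core frontal of 0.454 (adjusted p = 0.349).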

How the data were processed

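The deposited count table holds the authors' whole-number read counts of 23980 circRNAs by chromosome, start and end, without normalization, strand or gene names. The deposited FPKM table equals count over genomic span and library total (largest relative difference 4.97e-15) and was not used further. TopHat2 2.0.10, Bowtie and the build mm9 are listed per the submitters' processing notes; the circRNA caller is not given in the sources used here. The labels name both a TruSeq and a NEBNext directional kit. The build was settled from the coordinates: 89.1% of starts and 89.7% of ends lay on GENCODE M21 boundaries on GRCm38, against 0.192% and 0.275% when moved by 1 base. A start had to equal an exon start and an end an exon end, counted from 1. Splice-site bases and shared 20-base ends came from GENCODE transcripts.

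Junctions and lists were chosen with earlier results of these data known. Named are the 15 joining and 10 between-gene junctions with most counts, every called one, and every one past 2-fold at an unadjusted p under 0.05, except 2 that are not reported here. Levels were scaled to the library total. Counts were tested with Fisher's exact test (scipy 1.17.1, two-sided) with conditional exact 95% intervals of ratios, since edgeR's quasi-likelihood test needs replicates. Alternatives were TMM and the exact test (edgeR 4.0.16), DESeq2 1.42.0 size factors, other filters and other annotation matches. A 0 stands for up to 3 counts. Splice-site dinucleotides were not analysed here.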

Additional observations from a re-analysis of the deposited data

How the results depend on the processing

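No paired analysis was possible because each group has 1 library, and for the same reason no library could be left out. The 517 junctions were 517 when an end could match any exon start or end, 513 when within 2 bases of a boundary (511 of them shared), 545 with protein-coding and lncRNA genes only and 538 without genes flagged as readthrough. Their share of counts in the core frontal, core occipital, penumbra and sham libraries became 1.24%, 1.21%, 1.22% and 1.22% with protein-coding and lncRNA genes only, 1.38%, 1.37%, 1.42% and 1.47% without readthrough genes, 1.17%, 1.17%, 1.16% and 1.17% relative to circRNAs of 1 gene, and 0.807%, 0.787%, 0.815% and 0.838% over circRNAs with at least 10 counts. The number called in penumbra against core frontal, 2 with the settings reported, was 0 with no minimum count (more circRNAs tested) and 0 with edgeR's exact test, and stayed 2 under TMM, DESeq2 size factors, same-gene totals and a minimum of 30 counts. All 23 ratios with an unadjusted p under 0.05 by Fisher's exact test kept their direction and their call under the 3 other scalings. Other ratios were not compared in this way. Under TMM the chr9 junction in Gm35658 passed 2-fold in penumbra against core occipital (ratio 2.16, adjusted p = 0.366, Fisher's exact test), and the chr4 junction in Gm31145 passed the p threshold but not 2-fold in core frontal against core occipital (ratio 1.96, adjusted p = 0.0464). Depth limits the rest: 452 junctions had too few counts for any test.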
